A study of Mus musculus with 12 samples.

Results

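Glycolysis and the response to low oxygen are covered here by 35 genes out of the 24274 in the deposited expression matrix. They fall into 22 genes of glycolysis (4 transporters, 16 enzymes of the pathway and 2 enzymes that make or remove its activator fructose-2,6-bisphosphate) and 13 genes of the hypoxia-inducible factor (HIF) pathway (3 regulators and 10 targets). The genes were chosen by symbol. The RefSeq entries of the matrix were matched to these symbols and the values of all transcripts of a gene were summed, and each of the 35 genes had at least 1 entry. Values are FPKM (fragments per kilobase of transcript, scaled to the mapped fragments of the library), a scale that allows levels of different genes to be compared per length.

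RNA was measured in insulin-reactive CD4 T effector cells recovered from pancreatic islets and spleen after transfer, in 4 groups of 3 libraries. The groups were islet cells of Y16A origin, islet cells of WT origin, spleen cells of Y16A origin and spleen cells of WT origin. The Y16A donors were female NOD.InsY16A transgenic mice and the WT donors female NOD mice, the strain that develops autoimmune diabetes, all 6 to 8 weeks old. Every donor had been immunised with Insulin C19A, and its splenocytes were cultured for 2 weeks with 10 µM peptide before 5 M purified CD4 T cells went into a female NOD.scid recipient of 8 to 10 weeks. Per the labels, the cells were above 95% pure with less than 1% positive for Foxp3 before the transfer, and no sort of the recovered cells is named. NOD.scid mice lack T and B cells of their own but keep myeloid cells. Each recipient gave 1 islet and 1 spleen library under the same mouse name, so the 12 libraries came from 6 mice. The titles read pancreas where the tissue entry reads pancreatic islets, and the genotype entry of the labels goes against the titles; groups follow the titles. In such bulk samples, fewer cells of a type and less RNA per cell cannot be told apart.

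Glycolysis converts glucose to pyruvate through a chain of enzymes, and lactate dehydrogenase then turns pyruvate into lactate, which monocarboxylate transporters carry out of the cell. Effector T cells are known to raise glucose uptake and glycolysis after activation even where oxygen is plentiful. HIF-1α, the product of Hif1a, is marked for destruction by oxygen-dependent prolyl hydroxylases, accumulates at low oxygen or after T cell receptor signalling, and then binds DNA with its partner ARNT and turns on genes of glucose uptake, glycolysis and adaptation to low oxygen.

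The depth of the libraries, estimated from the steps of low FPKM values, was 4.36 to 8.51 M fragments. At that depth 3 fragments on a transcript of 1500 bp are worth 0.235 to 0.459 FPKM, which covers counting error only. The libraries carried T cell transcripts throughout: Cd3e was at 266 to 501 FPKM in islet and 204 to 299 FPKM in spleen, and Cd4 at 64.1 to 129 FPKM in islet and 66.0 to 117 FPKM in spleen. Transcripts of other cells moved with the tissue. The 27 acinar and duct markers found, of 29 listed, summed to 1636 to 5844 FPKM in islet libraries, with 22 to 26 of them detected, and to 3.88 to 12.2 FPKM in spleen libraries. The 19 endocrine markers summed to 396 and 1086 FPKM in islet WT 1 and 2, and to 1.92 to 56.1 FPKM in the other islet libraries and 1.24 to 10.4 FPKM in spleen. The 10 neutrophil markers summed to 0.848 to 24.0 FPKM in islet and 95.1 to 244 FPKM in spleen, and the 13 erythroid and platelet markers found to 5.13 to 124 FPKM in islet and 126 to 2386 FPKM in spleen. The 16 macrophage and myeloid markers found, of 17 listed, summed to 118 to 262 FPKM in islet and 265 to 733 FPKM in spleen. The 10 endothelial and stromal markers summed to 2.61 to 27.5 FPKM in islet and 1.95 to 8.22 FPKM in spleen. The part of these transcripts in the results below was not tested, beyond the values given beside single genes.

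Aldolase and lactate dehydrogenase A transcripts dominated the glycolysis genes in every library. Averaged over the 12 libraries, Ldha, the muscle-type lactate dehydrogenase subunit, stood at 252 FPKM and Aldoa, the aldolase that splits fructose-1,6-bisphosphate, at 210.1 FPKM. The next in order were Pkm, the pyruvate kinase of the last step, at 73.0 FPKM, Pfkp, a phosphofructokinase subunit, at 52.1 FPKM and Tpi1, the triose phosphate isomerase, at 40.9 FPKM. Ldha alone made up 31.7% to 40.8% of the summed FPKM of the 22 glycolysis genes. That sum was 1188, 779 and 859 FPKM in islet Y16A, 537, 582 and 902 FPKM in islet WT, 727, 532 and 588 FPKM in spleen Y16A and 436, 639 and 569 FPKM in spleen WT. The 3 islet Y16A sums lay above all 6 spleen sums, while the islet WT sums overlapped both spleen groups. The sum of the 13 HIF genes was far lower, at 70.3, 61.2 and 58.3 FPKM in islet Y16A, 44.6, 34.0 and 49.2 FPKM in islet WT, 27.5, 44.9 and 38.5 FPKM in spleen Y16A and 26.8, 50.2 and 50.9 FPKM in spleen WT. The 3 islet Y16A sums of the HIF genes were above those of every other library, which did not hold for the glycolysis genes, where islet WT 3 exceeded islet Y16A 2 and 3. The FPKM of all transcripts also differed in total between libraries. These totals were 255600 to 327700 in islet Y16A, 240400 to 342400 in islet WT, 196700 to 233800 in spleen Y16A and 163900 to 259900 in spleen WT. The sums of the 22 and of the 13 genes were not rescaled to them, so their order between groups holds for the listed FPKM only. Set against its total, spleen Y16A 2 (HIF sum 44.9 of 196700 FPKM) lay above islet Y16A 1 (70.3 of 327700 FPKM). Likewise spleen Y16A 1 (glycolysis sum 727 of 230900 FPKM) lay above islet Y16A 2 (779 of 284500 FPKM). Relative to the totals, islet Y16A was therefore not set apart by either sum.

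**Figure D1:**
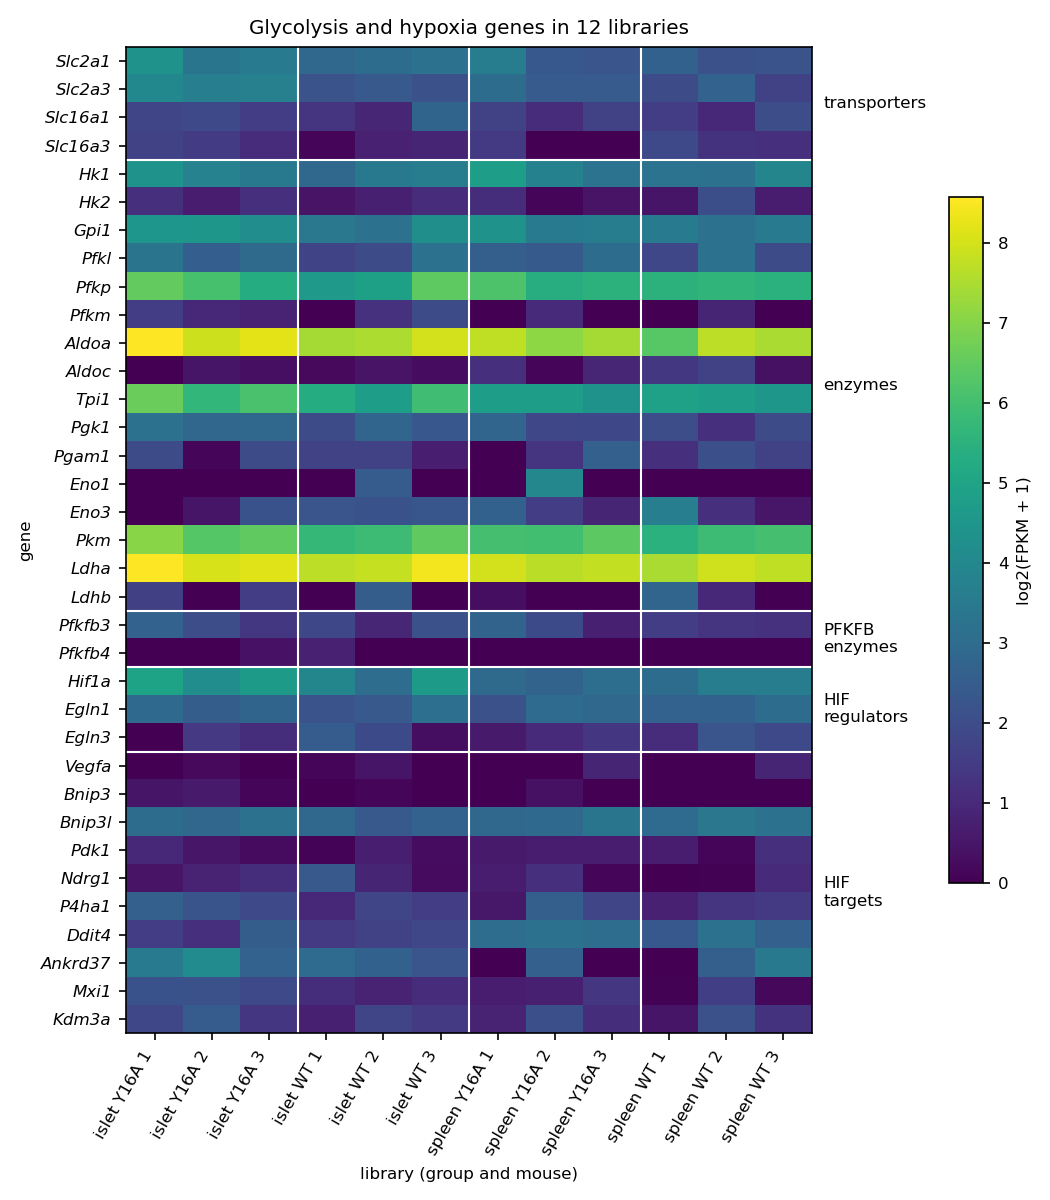
Levels of the 35 genes (rows, by role) in the 12 libraries (columns, by group and mouse), as log2(FPKM + 1) in colour. Ldha and Aldoa are the brightest rows in every library, and Eno1, Pfkfb4, Vegfa and Bnip3 are listed at 0 in 7 to 10 of the libraries.

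Several genes of the pathway have near-identical copies in the genome, and their listed levels are uncertain. Gapdh, an enzyme of the pathway that is not among the 35 genes and that most cells express strongly, was listed at only 0 to 1.90 FPKM in the matrix. Eno1, the ubiquitous enolase, was listed at 0 in 10 libraries, at 4.69 FPKM in islet WT 2 and at 14.8 FPKM in spleen Y16A 2. Its near copy Eno1b carried 61.2, 64.2 and 72.9 FPKM in islet Y16A, 34.0, 47.2 and 63.2 FPKM in islet WT, 24.0, 66.6 and 43.8 FPKM in spleen Y16A and 36.2, 57.3 and 39.9 FPKM in spleen WT. The authors' deposited table, which holds only the islet groups, gives 1 Eno1 entry at 82.5 FPKM in Y16A and 64.4 FPKM in WT and another at 2.54 FPKM in Y16A and 7.34 FPKM in WT. The low values of Pgk1, the phosphoglycerate kinase (1.27 to 8.33 FPKM), and Pgam1, the phosphoglycerate mutase (0 to 5.24 FPKM), are open to the same uncertainty, and how far copies took their fragments was not tested.

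The promoters of these genes were described by their matches to the HIF-binding core. The 250 bases before each RefSeq start (GRCm38.p6) were searched for ACGTG and GCGTG, and for the same words on the other strand, CACGT and CACGC, with overlapping matches counted as 1 site. Of the 35 genes, 32 had a window, and 30 of these (93.8%) held at least 1 site in 1 of their windows, against 41.5% of 27025 genes with a window. Counted by window, 39 of 50 (78%) held a site, against 38.6% of all 32851 windows. The windows of these genes were richer in G and C, with a median of 61% against 52.4% over all windows, and the part of base composition in these shares was not tested. The genes were also chosen for their place in glycolysis and the HIF pathway, so the shares are no independent result. The share by gene further depends on the number of windows per gene, which was 50 for 32 genes here and 32851 for 27025 over all. Slc2a3, Bnip3l and Ndrg1 had no window. Gpi1 and Tpi1 were the genes with a window and no match. Below are 4 windows, with matches in capitals: Tpi1 as the gene called between the tissues, Ddit4 as the HIF target with the smallest p in that comparison, Ldha as the most abundant gene and Bnip3 as the gene with the most sites. A match is a description of the letters only.
Tpi1 (chr6:124814159-124814408, minus strand, 0 sites): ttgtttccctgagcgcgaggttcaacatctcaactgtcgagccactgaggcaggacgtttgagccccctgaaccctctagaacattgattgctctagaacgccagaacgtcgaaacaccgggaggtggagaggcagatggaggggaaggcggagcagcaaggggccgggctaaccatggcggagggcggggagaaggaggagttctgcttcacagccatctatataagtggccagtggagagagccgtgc
Ddit4 (chr10:59951771-59952020, minus strand, 2 sites): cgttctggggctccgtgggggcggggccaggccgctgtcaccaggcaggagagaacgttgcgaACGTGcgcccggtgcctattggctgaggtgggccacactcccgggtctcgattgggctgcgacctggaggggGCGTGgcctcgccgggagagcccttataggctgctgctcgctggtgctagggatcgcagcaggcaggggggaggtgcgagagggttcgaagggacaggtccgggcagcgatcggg
Ldha (chr7:46845554-46845803, plus strand, 3 sites): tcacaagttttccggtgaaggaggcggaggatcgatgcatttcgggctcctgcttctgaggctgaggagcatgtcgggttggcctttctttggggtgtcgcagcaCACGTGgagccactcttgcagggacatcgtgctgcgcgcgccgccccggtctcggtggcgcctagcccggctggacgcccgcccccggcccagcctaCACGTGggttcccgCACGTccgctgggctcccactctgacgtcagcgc
Bnip3 (chr7:138909507-138909756, minus strand, 4 sites): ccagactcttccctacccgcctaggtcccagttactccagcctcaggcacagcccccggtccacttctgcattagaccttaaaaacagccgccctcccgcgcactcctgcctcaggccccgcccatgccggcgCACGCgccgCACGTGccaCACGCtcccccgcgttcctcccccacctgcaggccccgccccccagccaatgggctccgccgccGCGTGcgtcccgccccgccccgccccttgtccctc
Windows with 3 or more sites, such as those of Ldha and Bnip3, made up 4.65% of all windows. The listed levels of these genes lay far apart: Ldha was the most abundant of the 35 genes, and Bnip3 was at 0 in 7 libraries and never above 0.521 FPKM.

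The first question was whether the cells in the islet differed from those in the spleen. Of the 35 genes, 30 reached 1 FPKM in at least 3 libraries and were tested with limma on log2(FPKM + 1), together with all other such genes (10044 in all). Eno1, Pfkfb4, Vegfa, Bnip3 and Pdk1 did not reach that level. Over both origins together, 1 of the 30 genes was called at a Benjamini-Hochberg adjusted p under 0.05 (Tpi1, higher in islet), where 2.24% of all genes tested were called. Within the Y16A origin 0 of 30 were called against 1.15% of all genes, and within the WT origin 0 of 30 against 0.806%. At an unadjusted p under 0.05 there were 8 (7 higher, 1 lower) over both origins, against 13.6% of all genes, 8 (7 higher, 1 lower) in the Y16A origin, against 10.2%, and 1 (lower) in the WT origin, against 8.61%. The median log2 change of the 30 genes was 0.04 over both origins, 0.13 in the Y16A origin and 0.03 in the WT origin, against -0.08, -0.09 and -0.05 for all genes tested in the same order. From each log2 change the median over genes averaging more than 5 FPKM was subtracted, namely 0.25 over both origins, 0.32 in Y16A and 0.16 in WT. The p values are those of the unsubtracted change. Counts of mice with a higher or lower islet value, given below, also use unsubtracted values and so lean towards islet. The share of all genes that reach such counts was not computed.

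The 20 tested transporter and enzyme genes and the 10 tested HIF genes did not part in direction. Over both origins 11 of 20 transporter and enzyme genes (55%) and 6 of 10 HIF genes (60%) had a log2 change above 0, with medians of 0.02 and 0.12. Of all genes tested, 42.6% had a change above 0. The 3 islet values lay wholly to one side of the 3 spleen values for 9 of the 30 genes (30%) in the Y16A origin, against 18.3% of all genes. In the WT origin this held for 4 of 30 (13.3%), against 11.3% of all genes. With both origins joined, 6 values against 6, it held for 0 of 30, against 1.96% of all genes. These counts use unsubtracted values and so lean towards islet. In the Y16A origin 8 of the 9 lay higher in islet, and of all genes 1463 lay higher and 371 lower. The Y16A count fell under quantile normalization and after rescaling, as given in the last section.

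**Figure D2:**
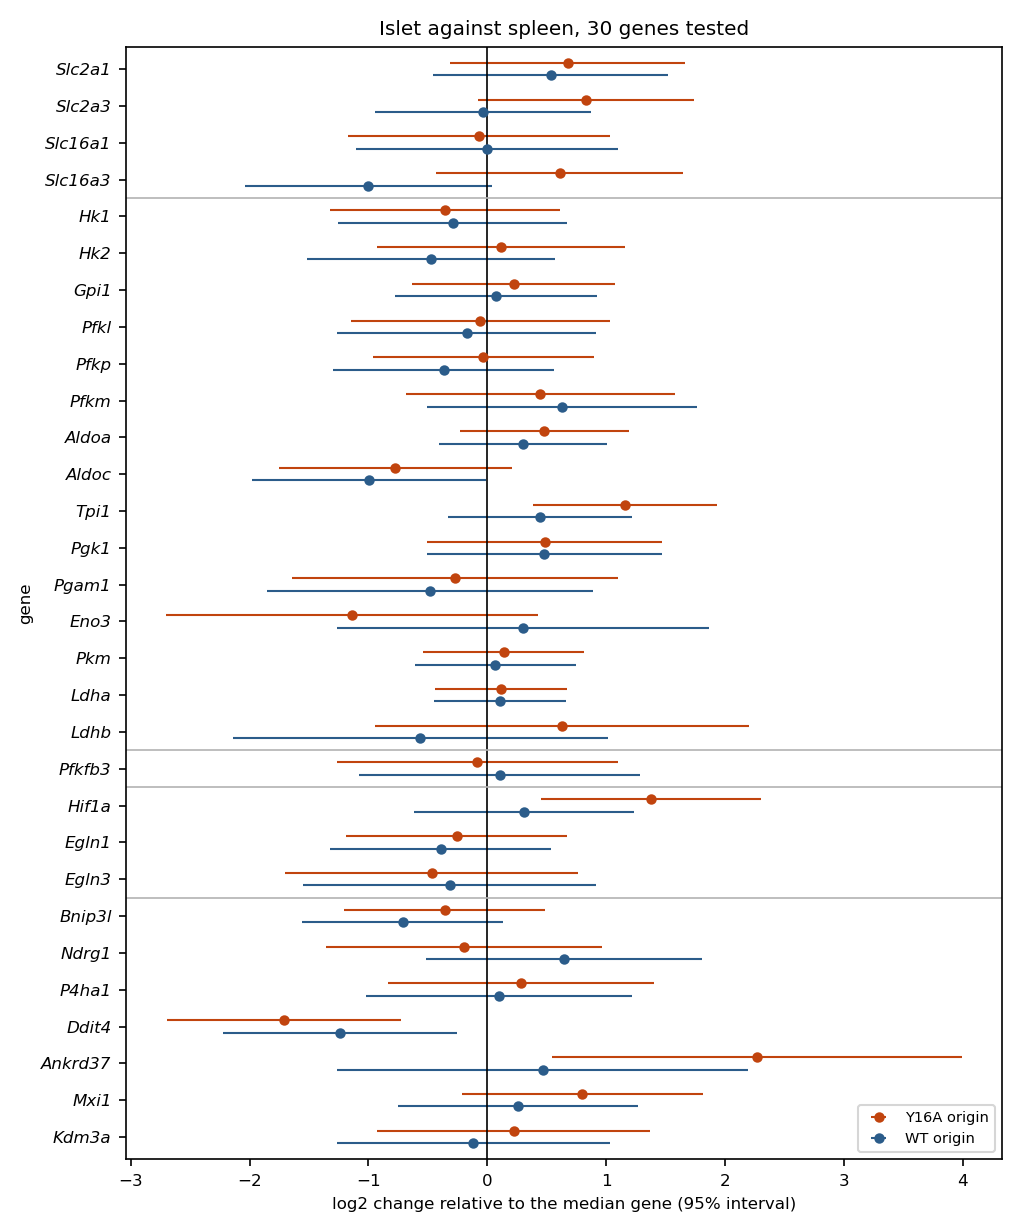
Log2 change of islet against spleen for the 30 tested genes, relative to the median gene, with 95% intervals; the horizontal lines part the roles in the order transporters, enzymes, fructose-2,6-bisphosphate enzyme, HIF regulators and HIF targets. Tpi1, Hif1a and Ankrd37 lie above 0 and Ddit4 below 0 with their Y16A intervals clear of it, while in the WT origin the intervals of most genes, Tpi1 and Hif1a among them, cross 0.

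Among the transporters, both glucose carriers averaged higher in islet without passing the test. Slc2a1, the widely expressed glucose transporter GLUT1 that activated T cells rely on, had 19.6, 9.12 and 10.8 FPKM in islet Y16A, 6.21, 7.15 and 8.09 FPKM in islet WT, 11.3, 4.17 and 3.82 FPKM in spleen Y16A and 5.35, 3.41 and 3.56 FPKM in spleen WT. The islet value was above the spleen value in 6 of 6 mice, although spleen Y16A 1 exceeded 5 of the 6 islet libraries. Over both origins the log2 change was 0.60 (SE 0.33, limma adjusted p = 0.257).
Slc2a3, the high-affinity glucose transporter GLUT3, had 15.2, 11.6 and 12.3 FPKM in islet Y16A, 3.56, 4.23 and 3.39 FPKM in islet WT, 7.11, 4.45 and 4.51 FPKM in spleen Y16A and 2.92, 5.42 and 2.22 FPKM in spleen WT. The 3 islet Y16A libraries were above the other 9, and spleen WT overlapped both remaining groups. The tissue change was 0.40 over both origins (SE 0.31, limma adjusted p = 0.370).
The lactate exporters were low. Slc16a1 (MCT1) ran from 0.880 to 5.74 FPKM, with islet above spleen in 3 of 6 mice. Slc16a3 (MCT4) had 2.13, 1.84 and 1.14 FPKM in islet Y16A, 0.0911, 0.723 and 0.855 FPKM in islet WT, 1.73, 0 and 0 FPKM in spleen Y16A and 2.73, 1.36 and 1.30 FPKM in spleen WT. Islet was above spleen in each Y16A mouse and below it in each WT mouse, at no more than 2.73 FPKM in any library.

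Among the enzymes, Tpi1 rose in islet. Its levels were 96.2, 50.0 and 69.0 FPKM in islet Y16A (71.7 ± 23.2, SD, n = 3), 38.9, 26.1 and 60.3 FPKM in islet WT (41.8 ± 17.3), 26.3, 26.9 and 19.8 FPKM in spleen Y16A (24.3 ± 3.91) and 29.0, 26.1 and 22.3 FPKM in spleen WT (25.8 ± 3.35). The 6 spleen libraries lay close together and the islet libraries were spread above them, apart from islet WT 2, which was level with its own spleen. Islet averaged 56.7 ± 24.6 FPKM and spleen 25.1 ± 3.35 FPKM (SD, n = 6 each), with islet higher in 5 of 6 mice. The log2 change over both origins was 0.80 (SE 0.26, 95% interval 0.25 to 1.34, limma adjusted p = 0.0423, or 0.0469 with the mouse as a block). Within the Y16A origin the change was 1.16 (adjusted p = 0.0608) and within the WT origin 0.45 (adjusted p = 0.717), and the difference between them did not pass in limma (adjusted p = 1.00). The call rested on single libraries: it held in limma without islet Y16A 2, islet WT 2 or spleen WT 1 and was lost without any of the other 9, with adjusted p values of 0.0593 to 0.134. Of all 23 alternatives, 15 lost the call, among them median centring (adjusted p = 0.0714), quantile normalization (0.108), rescaling without markers of other cells (0.205), no filter on low values (0.103), the highest transcript in place of the sum (0.0666) and a limma fit without the intensity trend and robust variance (0.107). The summed acinar and duct markers were 1636, 4187 and 3312 FPKM in islet Y16A 1 to 3 and 2434, 5844 and 1760 FPKM in islet WT 1 to 3. Within each origin the order of these sums was the reverse of that of Tpi1. Across the origins it was not, since islet WT 1 had less Tpi1 than islet Y16A 2 and 3 at a lower sum. Their part in the Tpi1 values was not tested.

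The most abundant enzymes did not pass the test. Aldoa had 381, 239.9 and 301 FPKM in islet Y16A, 170.1, 183 and 252 FPKM in islet WT, 217, 138 and 171 FPKM in spleen Y16A and 80.7, 208 and 179 FPKM in spleen WT. The 3 islet Y16A values were above every spleen value, and the WT groups overlapped. Over both origins Aldoa changed by 0.39 (SE 0.24, limma adjusted p = 0.238).
Ldha had 377, 268 and 282 FPKM in islet Y16A, 210.1, 227 and 341 FPKM in islet WT, 254, 203 and 219.8 FPKM in spleen Y16A and 178, 247 and 214 FPKM in spleen WT. Again the islet Y16A values cleared the spleen values and the WT groups overlapped. The change of Ldha relative to the median gene was 0.11 (SE 0.19, 95% interval -0.28 to 0.50, limma adjusted p = 0.432), and quantile normalization turned it to -0.044.
Pkm had 132, 78.0 and 88.6 FPKM in islet Y16A, 51.5, 57.7 and 88.4 FPKM in islet WT, 65.4, 62.5 and 84.6 FPKM in spleen Y16A and 43.4, 58.1 and 65.3 FPKM in spleen WT. Islet was higher in 5 of 6 mice, islet and spleen overlapped within each origin, and the change was 0.10 (SE 0.23, limma adjusted p = 0.566).

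The remaining enzymes are given by their ranges. At the entry of the pathway, the hexokinase Hk1 ran from 6.53 to 26.9 FPKM, against 0.112 to 3.22 FPKM for the inducible hexokinase Hk2, and the glucose-6-phosphate isomerase Gpi1 from 8.10 to 22.2 FPKM. Islet was higher in 3, 4 and 5 of 6 mice for Hk1, Hk2 and Gpi1. Of the phosphofructokinase subunits, Pfkp (23.8 to 89.7 FPKM) exceeded Pfkl (2.39 to 8.94 FPKM) and Pfkm (0 to 3.01 FPKM, listed at 0 in 5 libraries) in every library, and no subunit passed between the tissues. Pgk1 averaged 5.61 ± 1.88 FPKM in islet and 3.08 ± 1.56 FPKM in spleen (SD, n = 6 each), with islet higher in 5 of 6 mice (log2 change 0.48, limma adjusted p = 0.345). The minor isozymes were low: the aldolase Aldoc at 0 to 2.24 FPKM, the muscle enolase Eno3 at 0 to 11.8 FPKM and the heart-type lactate dehydrogenase subunit Ldhb at 0 to 5.91 FPKM, with 6 libraries at 0. Aldoc was lower in islet in 5 of 6 mice (0.238 ± 0.150 FPKM in islet, 1.06 ± 0.803 FPKM in spleen, SD, n = 6 each, limma adjusted p = 0.411). Pfkfb3, which makes the phosphofructokinase activator, ran from 0.669 to 5.69 FPKM with islet higher in 4 of 6 mice, and its direction changed with single libraries. Its relative Pfkfb4 was listed at 0 in 10 libraries, with 0.341 FPKM in islet Y16A 3 and 0.724 FPKM in islet WT 1.

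**Figure D3:**
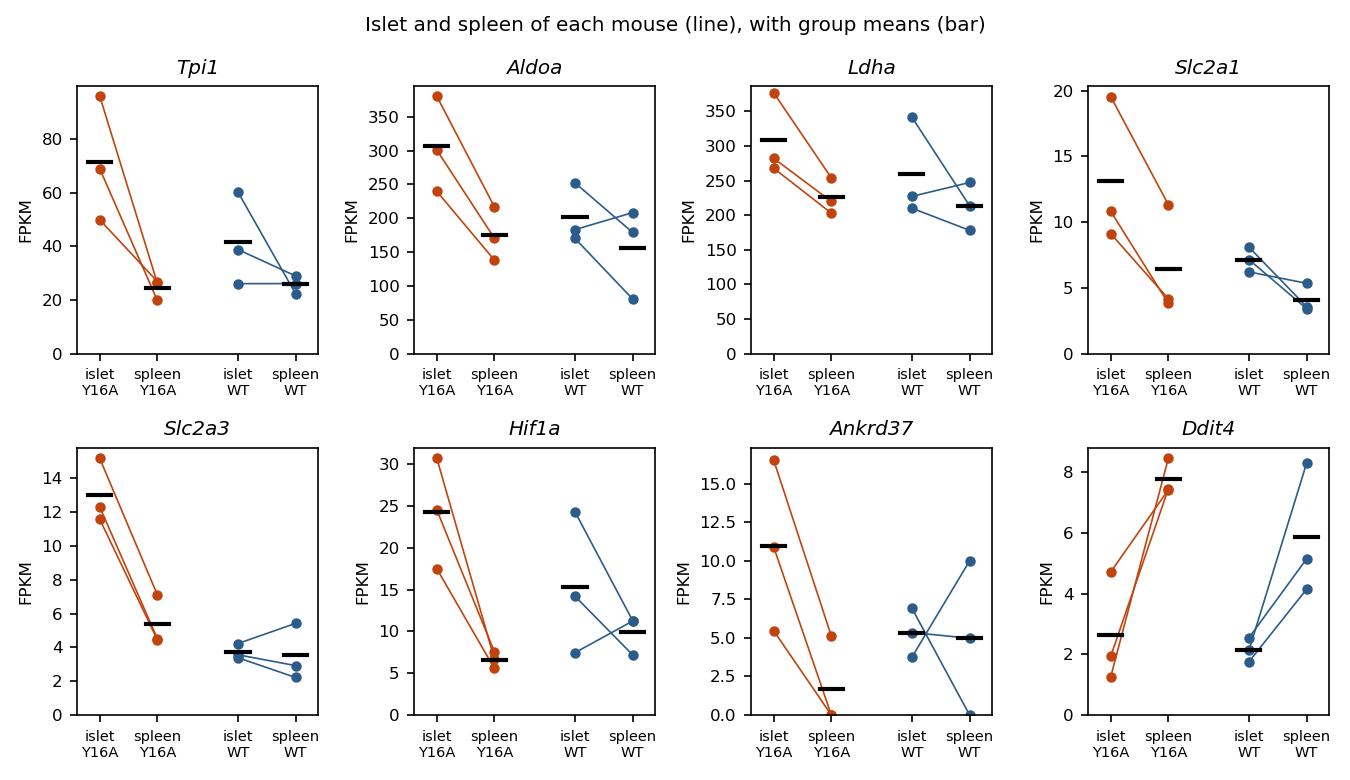
FPKM of 8 of the genes in islet and spleen of each mouse, joined by a line, with the Y16A origin on the left and the WT origin on the right of each panel; the short bars are group means. Ddit4 lies below its spleen level in the islet of 6 of 6 mice, Slc2a1 lies above it in 6 of 6, and Tpi1 and Hif1a lie above it in 5 of 6.

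Hif1a transcripts averaged higher in islet, with much spread. Hif1a had 30.7, 17.5 and 24.5 FPKM in islet Y16A (24.3 ± 6.62, SD, n = 3), 14.2, 7.46 and 24.3 FPKM in islet WT (15.3 ± 8.48), 6.72, 5.56 and 7.57 FPKM in spleen Y16A (6.62 ± 1.01) and 7.20, 11.2 and 11.3 FPKM in spleen WT (9.91 ± 2.35). Every islet Y16A value was above every spleen value, while islet WT 2 was below its own spleen and islet higher held in 5 of 6 mice. The log2 change over both origins was 0.84 (SE 0.31, 95% interval 0.18 to 1.50, limma adjusted p = 0.0893). It was 1.38 in the Y16A origin (SE 0.44, adjusted p = 0.0818) and 0.31 in the WT origin (SE 0.44, adjusted p = 0.867), and the difference between the origins did not pass in limma (log2 1.07, 95% interval -0.24 to 2.38, adjusted p = 1.00). Without islet WT 2 the change over both origins was 1.02 and passed in limma (adjusted p = 0.0413). It did not pass with any other single library left out. Islet WT 2 also had the highest sums of acinar and endocrine markers, and their part in the Hif1a values was not tested. With the transcript of highest mean in place of the sum, the change over both origins was 0.49 (limma adjusted p = 0.415).
Egln1 and Egln3, the prolyl hydroxylases of HIF-1α among the listed regulators, differed little in mean level between the tissues and did not pass the test. Egln1 (PHD2), the main one, ran from 3.41 to 7.74 FPKM and averaged 5.43 FPKM in islet and 5.78 FPKM in spleen. It was lower in islet in 4 of 6 mice (log2 change -0.33, or -0.08 unsubtracted, limma adjusted p = 0.947). Egln3 (PHD3), itself known as a HIF target, ran from 0 to 4.66 FPKM and averaged 1.76 FPKM in islet and 1.79 FPKM in spleen. It was also lower in islet in 4 of 6 mice (log2 change -0.40, or -0.15 unsubtracted, limma adjusted p = 0.924). The related gene Egln2 was counted with the other HIF pathway genes below. It averaged 11.2 FPKM in islet and 17.7 FPKM in spleen and was not called over both origins.

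The HIF targets went in both directions and none of the 7 tested was called. Ddit4, which encodes the mTORC1 inhibitor REDD1 and is induced by low oxygen and other stress, had 1.94, 1.26 and 4.71 FPKM in islet Y16A (2.63 ± 1.83, SD, n = 3), 1.76, 2.13 and 2.55 FPKM in islet WT (2.14 ± 0.395), 7.45, 8.45 and 7.42 FPKM in spleen Y16A (7.77 ± 0.589) and 4.14, 8.29 and 5.14 FPKM in spleen WT (5.86 ± 2.17). Only islet Y16A 3, at 4.71 FPKM, reached into the spleen values, above spleen WT 1. Islet averaged 2.39 ± 1.21 FPKM and spleen 6.82 ± 1.76 FPKM (SD, n = 6 each), with islet lower in 6 of 6 mice. The log2 change was -1.48 (SE 0.33, 95% interval -2.18 to -0.78, limma adjusted p = 0.0604, or 0.0801 with the mouse as a block). Ddit4 passed when libraries were centred on the median (adjusted p = 0.0169), quantile normalized (0.0185), rescaled without markers of other cells (0.0129), fitted without the intensity trend and robust variance (0.0476), or fitted without islet Y16A 3 (0.0400). The change was -1.71 in the Y16A origin (adjusted p = 0.25) and -1.24 in the WT origin (adjusted p = 0.535). The neutrophil, the erythroid and platelet, and the macrophage and myeloid marker sums given above were also lower in islet, and their part in the Ddit4 values was not tested.

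Ankrd37, an ankyrin repeat gene known as a HIF target, stood on the other side. Its levels were 10.9, 16.5 and 5.46 FPKM in islet Y16A, 6.92, 5.35 and 3.76 FPKM in islet WT, 0, 5.13 and 0 FPKM in spleen Y16A and 0, 4.98 and 10.0 FPKM in spleen WT. All islet libraries listed it and 3 spleen libraries did not, but spleen WT 3 was above 4 of the 6 islet libraries. The log2 change was 1.36 (SE 0.58, 95% interval 0.14 to 2.58, limma adjusted p = 0.217). Mxi1, a MAX-binding repressor that opposes Myc, had 3.43, 3.32 and 2.70 FPKM in islet Y16A, against no more than 2.01 FPKM in any other library. Its change over both origins was 0.52 (limma adjusted p = 0.327).
Bnip3l, a mitophagy receptor also called NIX, had 7.26, 6.05 and 8.18 FPKM in islet Y16A, 6.21, 4.27 and 5.43 FPKM in islet WT, 6.45, 6.62 and 9.09 FPKM in spleen Y16A and 7.05, 9.49 and 8.19 FPKM in spleen WT. It was lower in islet in 5 of 6 mice and did not pass (log2 change -0.54, SE 0.28, limma adjusted p = 0.735). P4ha1, a collagen prolyl hydroxylase subunit, ran from 0.464 to 5.19 FPKM and the histone demethylase Kdm3a from 0.414 to 4.62 FPKM, both with islet higher in 5 of 6 mice. Ndrg1, a stress-responsive gene, ran from 0 to 4.25 FPKM with islet higher in 3 of 6 mice.
Vegfa, Bnip3 and Pdk1, of the genes listed here as HIF targets, were close to the limit of detection. Vegfa, the angiogenic growth factor, was listed at 0 in 7 libraries and at no more than 0.859 FPKM. Bnip3, a mitophagy receptor related to Bnip3l, was above 0 in 3 islet Y16A libraries (0.408, 0.521 and 0.0731 FPKM), 1 islet WT library (0.0872 FPKM) and 1 spleen Y16A library (0.315 FPKM). Pdk1, the kinase that blocks pyruvate dehydrogenase, ran from 0.0633 to 1.21 FPKM. A difference between groups in these genes was not detectable at this depth.

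The second question was whether cells of Y16A origin differed from cells of WT origin within a tissue. In the islet 0 of the 30 genes were called by limma, as were 0% of all genes tested, and 3 had an unadjusted p under 0.05 (Slc2a3, Tpi1 and Mxi1, all higher in Y16A), against 4.7% of all genes. In the spleen 0 of 30 were called, against 0% of all genes, and 0 had an unadjusted p under 0.05, against 5.19%. In the islet 19 of 30 genes (63.3%) had a log2 change above 0, against 45.4% of all genes tested, and the median was 0.31, against -0.06. In the spleen it was 15 of 30 (50%), against 49.0% of all genes tested, and the median was 0.00, against -0.01. These changes are relative to a median gene that was 0.26 higher in Y16A islet and 0.07 higher in Y16A spleen. Groups did not overlap for 7 of 30 genes in the islet (23.3%), against 10% of all genes: Slc2a1, Slc2a3, Slc16a3, Pgk1, Mxi1 and P4ha1 lay higher in Y16A and Eno3 lower. This count uses unsubtracted values and so leans towards Y16A. Of all genes, 780 lay higher in Y16A islet and 227 lower, and the count was not repeated under other scalings. Markers of other cells differed between the same islet groups. The endothelial and stromal sum was 8.67 to 27.5 FPKM in islet Y16A and 2.61 to 5.83 FPKM in islet WT, with no overlap, and the endocrine sum was 1.92 to 56.1 FPKM in islet Y16A and 29.1 to 1086 FPKM in islet WT. Their part in the islet values was not tested. In the spleen no overlap was found for Gpi1 alone (3.33%, higher in Y16A), against 9.09% of all genes.

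Slc2a3 had the smallest p of the 30 genes between the islet groups. It averaged 13.0 ± 1.90 FPKM in islet Y16A and 3.73 ± 0.444 FPKM in islet WT (SD, n = 3 each), with no overlap. The log2 change was 1.31 (SE 0.43, 95% interval 0.40 to 2.22, limma adjusted p = 0.781), and its p ranked 26 among the 10044 genes. In the spleen it averaged 5.36 ± 1.51 FPKM in Y16A and 3.52 ± 1.68 FPKM in WT (log2 change 0.46, 95% interval -0.45 to 1.37, limma adjusted p = 1.00). The islet Y16A libraries enter both this comparison and that of the tissues within the Y16A origin, so the 2 are not independent.
The authors' deposited table compares the islet groups on its own scale, which differs from that of the matrix. It marks 91 of 9815 entries (0.927%) as significant, and holds 33 entries for 25 of the 35 genes, of which 1 is significant. That entry is Slc2a3, at 40.9 FPKM in Y16A and 14.4 FPKM in WT (q = 0.0289 in the authors' deposited table). Tpi1 stands at 219 FPKM in Y16A and 147 FPKM in WT (q = 0.592) and Gpi1 at 64.9 FPKM in Y16A and 42.6 FPKM in WT (q = 0.654) in the authors' deposited table. Egln3 is lower in Y16A there, at 2.87 FPKM in Y16A and 10.6 FPKM in WT (q = 0.741 in the authors' deposited table). Of the 33 entries in the authors' deposited table, 20 (60.6%) are higher and 13 lower in Y16A, against 48.7% of all its entries that are higher.

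**Figure D4:**
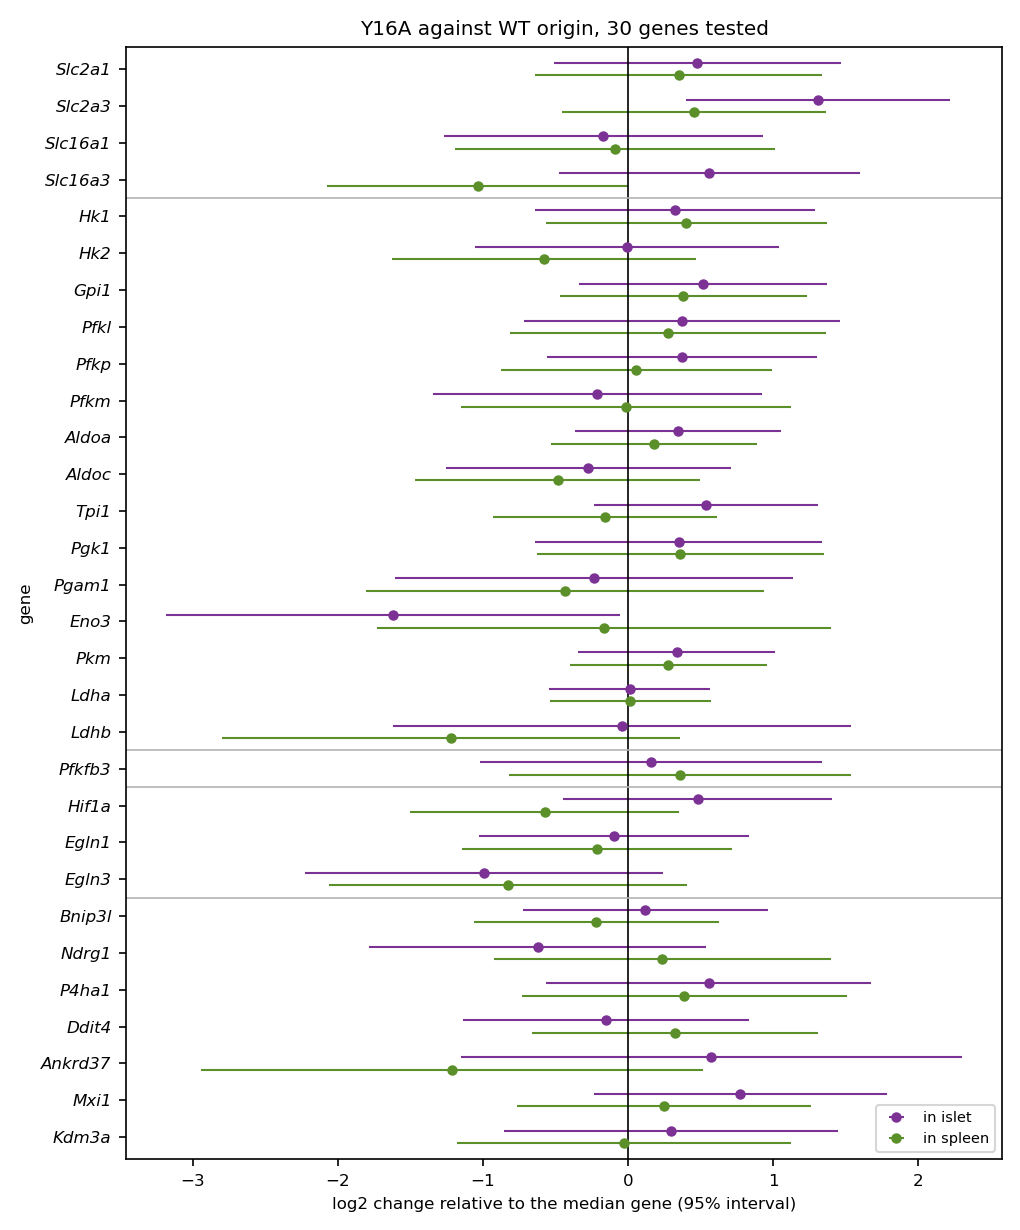
Log2 change of Y16A against WT origin for the 30 tested genes, in islet and in spleen, relative to the median gene, with 95% intervals. The islet interval of Slc2a3 lies above 0 (0.40 to 2.22), that of Eno3 below 0, and the other islet intervals cross 0.

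Whether the tissue change differed between the origins was tested as an interaction. For 22 of the 30 genes (73.3%) the islet-to-spleen change, taken relative to the median gene (0.16), was more positive in the Y16A origin. The share over all genes tested was 48.1%. The median difference was 0.17 for the 30 genes, against -0.03 for all genes tested. None of the 30 was called by limma, nor was any of the 10044 genes (0%), and 1 had an unadjusted p under 0.05 (Slc16a3), against 4.28% of all genes.

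For 24 of the 35 genes only 1 transcript was listed above 0, and for the other 11 the levels are sums. Pkm, whose splicing gives rise to the M1 and M2 forms of pyruvate kinase, was listed with NM_011099 in all 12 libraries, at 66.3% to 100% of its summed FPKM. NM_001253883 was listed in 6 libraries, namely islet Y16A 2, islet WT 2 and 3 and the 3 of spleen Y16A, at 10.6% to 33.7%. Which form each entry encodes is not given in the sources used here. Hif1a was split between NM_010431 and NM_001313919 in 4 libraries, with 39.4% to 57.0% in NM_010431 there.

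**Figure D5:**
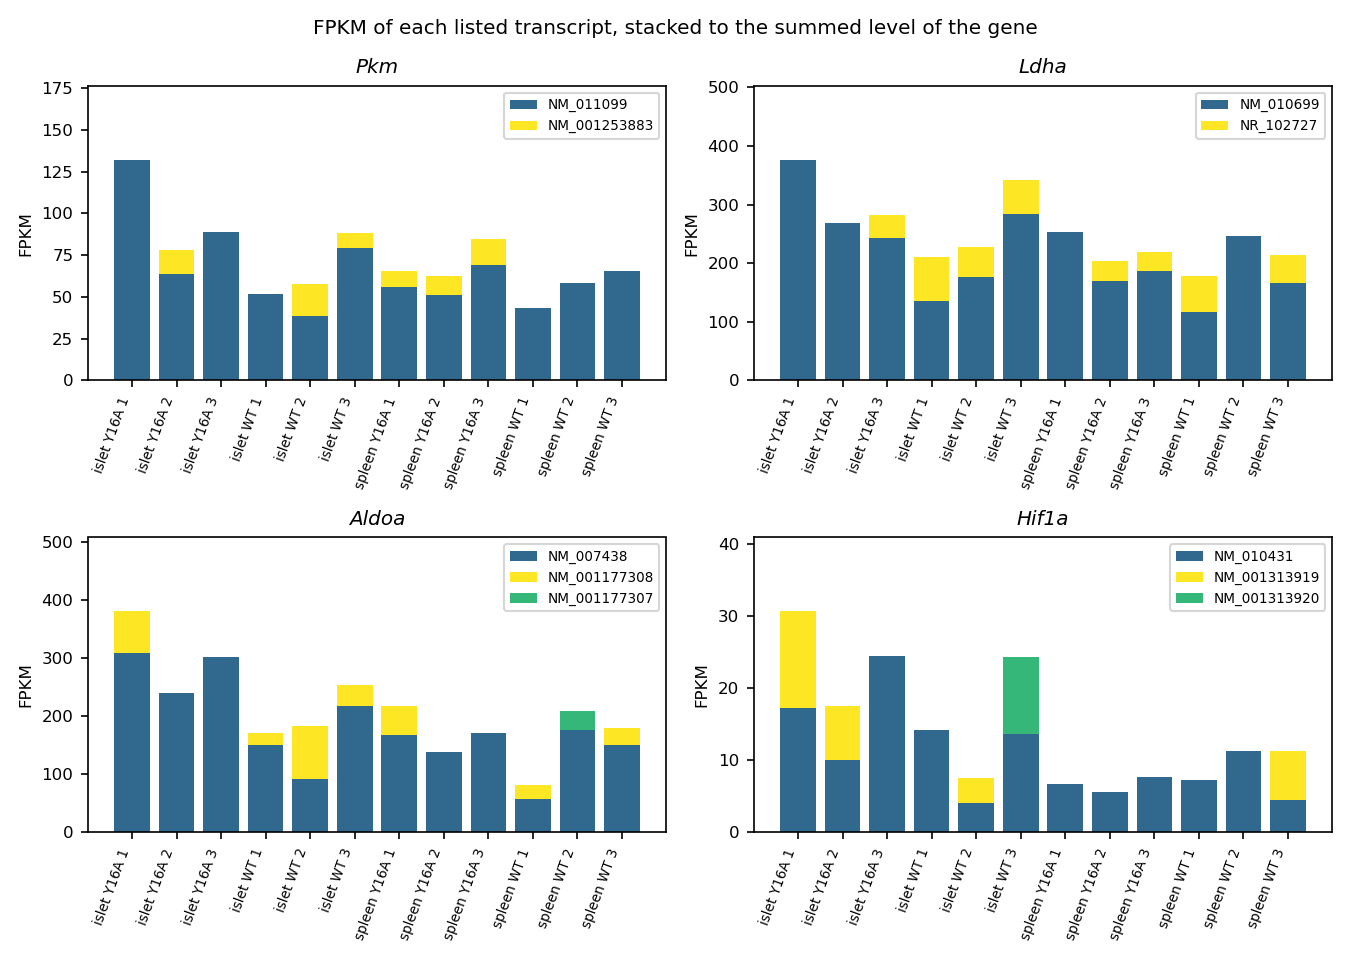
FPKM of each listed transcript of Pkm, Ldha, Aldoa and Hif1a in the 12 libraries, stacked to the summed level of the gene. One transcript holds most of Pkm, Ldha and Aldoa in nearly all libraries, while Hif1a is split between transcripts in 5 libraries.

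Other genes of the pathways were counted for comparison. Over both origins limma called 0 of 13 other glycolysis genes, 0 of 29 genes of pyruvate and TCA cycle metabolism, 0 of 7 of the pentose phosphate pathway and 0 of 8 of serine and one-carbon metabolism. It called 1 of 25 other HIF pathway genes and 1 of 23 upstream regulators, against 2.24% of all genes tested. Unadjusted p values under 0.05 were found for 2, 3, 0, 0, 3 and 2 genes of these lists in the same order. The called HIF pathway gene was Bhlhe40, a helix-loop-helix repressor that is induced by low oxygen and also by T cell activation. It had 213, 143 and 147 FPKM in islet Y16A, 73.1, 75.8 and 93.3 FPKM in islet WT, 39.1, 23.9 and 48.9 FPKM in spleen Y16A and 13.4, 27.0 and 22.0 FPKM in spleen WT, with every islet value above every spleen value. Bhlhe40 rose in islet in the Y16A origin (log2 change 1.85, SE 0.35, limma adjusted p = 0.00172) and in the WT origin (1.80, SE 0.35, adjusted p = 0.00586). Irf4, a transcription factor induced by T cell receptor signalling, rose over both origins (log2 change 1.40, SE 0.37, limma adjusted p = 0.0218). It had 6.24, 0.939 and 6.47 FPKM in islet Y16A and 2.89, 2.24 and 2.53 FPKM in islet WT, against 0.414, 0.880 and 0.0827 FPKM in spleen Y16A and 0, 0.284 and 0.356 FPKM in spleen WT, with no overlap between the tissues.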

How the data were processed

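After detergent lysis, cDNA was amplified and prepared as Nextera XT libraries (per the labels' protocols). TopHat 1.0.0, Cufflinks and the mm9 build are named in the submitters' processing notes; their settings are not given in the sources used here. The deposited matrix lists FPKM for each RefSeq transcript in 12 libraries. A second deposited table lists, for the islet conditions, the authors' FPKM, p-values and q-values, and 1 of its lines is not used here.

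Of 36285 matrix entries, 35986 (99.18%) matched a gene symbol, and FPKM were summed to 24274 genes, of which 5621 were 0 throughout. Testing was limited to the 10044 genes that reached 1 FPKM in 3 libraries or more, with limma 3.58.1 (R 4.3.3, statmod 1.5.0) on log2(FPKM + 1), computed here from the deposited values, with 4 group means, 8 residual degrees of freedom, trend and robust moderation. A fold change on this scale understates that of low genes. Adjusted p-values are Benjamini-Hochberg over all genes tested, and intervals are 95%. The fit was also run on simulated data, with residuals shuffled within each gene and known changes added to genes above about 5 FPKM. Such data carry no library-wide differences in scale or in other cells. The run is therefore no check of the fit against these, and its outcome is not reported here. Depth was estimated from FPKM steps, with 31.3% to 39.4% of low values within 0.1 of a whole fragment, so it is approximate.

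The labels name 1 mouse per pair of islet and spleen libraries, so the mouse pairs the tissues; the correlation of the deviations within a mouse was -0.03 to 0.08. Nothing says that the transferred lines came from separate donors, so p-values measure the spread between recipients, which may be partly technical. The plan was to name members called, the 2 highest and the 2 with the smallest p of each role with all values. The rest were given by range, and so were Pfkfb3, Egln1 and Egln3, which the plan named. Pkm, Slc16a3, Mxi1 and the other genes with full values were added after their values were seen. The genes, lists and tests were chosen with earlier results of these data known. Alternatives were the pseudocount (0.1), filter (none, or 5 FPKM), scaling, transcript choice, block, variance model, groups fitted and leaving out each library; leaving out islet WT 1 and 2 together was added after seeing the data. Promoter windows and gene names came from RefSeq (GRCm38.p6).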

Additional observations from a re-analysis of the deposited data

Results flagged for a closer look

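Slc16a3, the lactate exporter MCT4, was flagged by a rule on the sign of islet minus spleen. The rule asked for a positive difference in each mouse of either origin and a negative difference in each mouse of the other. The opposite directions therefore restate the rule, and the share of all genes that meet it was not counted. On the log2(FPKM + 1) scale, islet minus spleen was 0.20, 1.51 and 1.10 in the 3 Y16A mice and -1.77, -0.46 and -0.31 in the 3 WT mice. The mean was 0.93 in the Y16A origin and -0.85 in the WT origin, a difference of 1.78. The limma interaction did not pass over all genes tested (adjusted p = 1.00). Slc16a3 never exceeded 2.73 FPKM and was listed at 0 in 2 spleen Y16A libraries.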

How the results depend on the processing

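Across 480 repeats of 21 log2 changes and single-gene tests under the alternatives, 440 kept their direction and their side of the threshold, 15 lost the call, 15 gained one and 10 changed sign. The 15 losses all concern Tpi1 over both origins, whose log2 change stayed between 0.72 and 0.94 (limma adjusted p 0.0241 to 0.205). The number of genes called over both origins (1) was 0 with no filter, 0 with the highest transcript, 0 to 2 without single libraries and 2 without islet WT 1 and 2 (Hif1a and Tpi1); the alternative without a filter also tested more genes. With median centring, quantile normalization or rescaling the number stayed at 1, but the gene was Ddit4 and Tpi1 had adjusted p values of 0.0714, 0.108 and 0.205. In the Y16A origin (0 called) it was 1 with a filter at 5 FPKM, 2 with only the groups compared, 0 to 2 without single libraries and 2 without islet WT 1 and 2. In the WT origin and for the origin and interaction contrasts it stayed at 0 throughout. Genes with no overlap numbered 4 to 8 in the WT origin without single libraries. In the Y16A origin (9) there were 5 under quantile normalization and 5 after rescaling, and 9 to 13 without single libraries. With both origins joined (0) there was 1 under each of the 3 scalings (Ddit4) and 0 to 2 without single libraries. Leaving out a library makes groups easier to separate, so the counts without single libraries can hardly fall and are no check. The share of all genes with no overlap under the alternatives is not given here. Ldha changed sign under quantile normalization (-0.044). Pfkfb3 changed sign with the highest transcript (-0.56) and without single libraries (-0.27 to 0.22). Egln3 did so without islet WT 3 (0.021, with a range of -0.71 to 0.021 over single libraries left out). The causes were not tested. With the mouse as a block, limma called 258 genes over both origins, 133 in Y16A and 87 in WT, against 225, 116 and 81, and no call among the 35 genes changed. Over all genes, the 225 were 137 with no filter and 146 with the highest transcript, and the 81 were 50 without islet WT 1 and 2. For origin in the spleen (0) the highest transcript gave 5 genes. FPKM hold no fragment counts, so no counting interval is given, and genes below 1 FPKM cannot be compared at this depth.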
